A study of Mus musculus with 282 samples.

Results

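Transcripts of 30 mitotic genes were followed cell by cell in hematopoietic stem cells (HSCs) of adult mouse bone marrow, a population in which most cells rest outside the cell cycle. The genes were taken by symbol, and all 30 matched a row of the count table, among 49671 mouse genes counted. Every cell came from the same untreated group: 6 mice aged 12 to 22 weeks in 2 experiments, with the genotypes rtTA/rtTA at Rosa26 and H2B-GFP/H2B-GFP at Col1A1, labelled as not induced with doxycycline. Those alleles let doxycycline switch on a GFP-tagged histone that dividing cells dilute, and here it was left off. Cells were sorted singly into plates as LSK CD48-/loCD150+ (lineage-negative, Sca-1-positive, Kit-positive, with little or no CD48 and with CD150), and 282 wells were sequenced as poly(A) RNA libraries. The labels name no mouse for a well, so the cells are treated as 1 sample, no test between conditions is possible, and no p-value is given.

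Mitosis is driven by a kinase, Cdk1, that is switched on by cyclins A and B and switched off when the anaphase-promoting complex tags those cyclins for destruction. In between, chromosomes are compacted, attached to spindle microtubules through kinetochores, checked for correct attachment and pulled apart, and the cell is split by cytokinesis. Most of these genes are transcribed late in the cycle, from the end of DNA synthesis to division, and are held silent in resting cells. HSCs are known as rarely dividing cells, kept in reserve while their progeny produce most blood.

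Of the 282 wells, 232 were kept, each with at least 100000 gene reads and 1000 genes. A kept cell held 116009 to 1680710 gene reads (median 280096) and 3076 to 13734 genes (median 5221.5). The threshold for detection in a cell was 10 CPM, gene reads scaled to the same total in every cell (counts per 1e6), which is 2.8 reads in the median cell. Exact Clopper-Pearson 95% intervals are given for shares of cells. They cover counting error only, because no mouse is named for a well and cells of 1 sample are not replicates. The PCR reads carried no molecular identifiers. Wells carry a library series (29 or 32) and an HSC code (2 to 5) of unstated meaning, and their 6 combinations, called sets here, give the spread (SD, n = 6 sets). Among transcripts of the sort markers, Kit was detected in 84.5% of kept cells, Ly6a, the Sca-1 gene, in 72.4%, Slamf1, the CD150 gene, in 19.4% and Cd48 in 0.862%.

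Some wells of library series 32 held reads of other wells. For each well, genes with at least 50 reads there and a read in under 10% of all wells were listed, and the share of that list with a read in every other well was measured. In the 7 kept wells of plate 2, column 8, plate 1 wells of the same row in columns 6 to 8 had 46.3% to 100% of their rare genes present (median 82.8%, n = 20 pairs), against 4.26% to 25.4% for the other columns (median 13.6%, n = 61). In all, 19 kept wells shared reads in this way, 12 of them in the set L32 HSC-4 and none in library series 29, with a median of 0.476% to 18.4% of the source well's reads. Main counts are given with and without these wells.

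**Figure D1:**
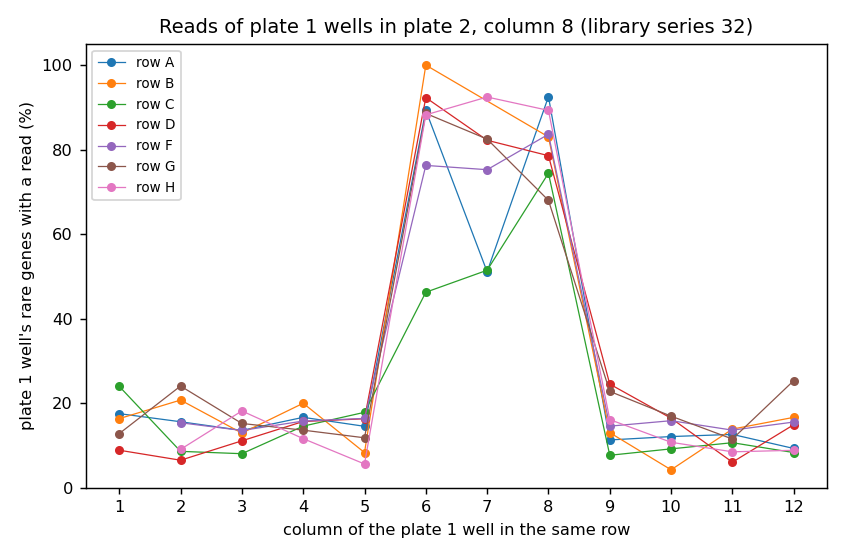
Share of a plate 1 well's rare genes that had a read in the plate 2, column 8 well of the same row (y axis, %), by column of the plate 1 well (x axis), for the 7 kept rows of library series 32 (lines). Columns 6 to 8 lie between 46.3% and 100%, and all other columns lie at 25.4% or below.

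Promoters of the members are shown first because 2 short motifs recur in them. In mammals many genes of mitosis carry a cell cycle homology region (CHR), core TTTGAA, near their start, through which repressors act in resting cells and activators late in the cycle, often beside a CCAAT box. RefSeq promoters on GRCm38.p6, from 250 bases before to 50 after the start, were found for 25 of the 30 members; Ccna2, Aurkb, Tpx2, Kif20a and Smc4 had no entry in the table used. TTTGAA or its reverse complement TTCAAA was present in 18 of the 25 (72%), against 17.9% of 32851 promoters and 11.7% of the 8536 promoters of genes detected in at least 10% of kept cells. CCAAT or its reverse complement ATTGG was present in 20 of 25 (80%), against 37.4% of all promoters. Both were found in 17 members and neither in Birc5, Nuf2, Nusap1 and Tacc3. A match is a description of the letters, not of a bound site. The bases just before the start are given 5′ to 3′ on the gene's strand, with either motif on either strand in capitals. Shown first are Top2a and Cdk1, the pair found together in the most cells, then Birc5 and Nuf2, never found without another member. Last are Kif23 and Cenpa, which had the largest numbers of cells with no other member, Smc4 aside. The stretches are Top2a chr11:99024190-99024389 (-), Cdk1 chr10:69352913-69353012 (-), Birc5 chr11:117849137-117849236 (+), Nuf2 chr1:169531465-169531564 (-), Kif23 chr9:61946800-61946899 (-) and Cenpa chr5:30666766-30666885 (+).
Top2a: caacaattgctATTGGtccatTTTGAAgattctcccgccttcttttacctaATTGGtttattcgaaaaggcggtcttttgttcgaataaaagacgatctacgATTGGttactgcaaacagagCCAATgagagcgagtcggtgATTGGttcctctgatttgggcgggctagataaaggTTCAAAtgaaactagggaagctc
Cdk1: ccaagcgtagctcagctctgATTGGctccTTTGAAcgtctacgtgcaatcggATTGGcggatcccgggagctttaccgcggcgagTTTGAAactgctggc
Birc5: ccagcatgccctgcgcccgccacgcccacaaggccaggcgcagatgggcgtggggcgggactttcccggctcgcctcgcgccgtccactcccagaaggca
Nuf2: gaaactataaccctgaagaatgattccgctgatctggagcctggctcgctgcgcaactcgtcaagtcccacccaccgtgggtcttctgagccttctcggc
Kif23: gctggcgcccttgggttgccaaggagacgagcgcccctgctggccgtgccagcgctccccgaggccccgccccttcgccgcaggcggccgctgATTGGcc
Cenpa: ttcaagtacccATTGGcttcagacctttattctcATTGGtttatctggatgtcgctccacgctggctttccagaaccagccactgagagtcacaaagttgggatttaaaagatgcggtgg
Top2a and Cdk1 held both motifs in these stretches, and Kif23 and Cenpa held only ATTGG there. The single TTTGAA match of Kif23 and of Cenpa lay downstream of the start.

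Of the 30 members, 4 (13.3%) were detected in at least 10% of kept cells, against 19.5% of all genes counted, a share near that background. In under 5% of cells were 18 (60.0%), against 75.8% of all genes and 46.4% of the 22385 genes detected in any kept cell, and in under 1% were 5 (16.7%), against 67.2% and 27.2%. Smc4 stood apart at 145 cells, and the other 29, each in under 25% of cells, are called the narrow members below. Without the wells that share reads, 17 members were in fewer cells: Smc4 in 130 in place of 145, Kif23 in 33 (38 with them), Cdk1 in 18 (23), Tacc3 in 12 (17), Ccna2 in 5 (8), Cenpf in 10 (13), Ckap2 in 14 (17), Top2a in 26 (29), Cdc20 in 15 (18), Cenpa in 23 (25) and Mki67 in 11 (13), with 1 cell fewer for Aurka, Birc5, Ndc80, Nuf2, Tpx2 and Kif20a. Counts in the accounts of single genes that follow include those wells.

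Among the kinases and cyclins, Cdk1, the central mitotic kinase (chr10:69336635-69352938, mm10), was detected in 23 cells (9.91%, interval 6.39% to 14.5%; 9.86% ± 5.41 over sets) at 11.9 to 656 CPM, median 219. Its partners were rarer: cyclin A2, Ccna2, was in 8 cells, cyclin B1, Ccnb1, in 9 and cyclin B2, Ccnb2, in 2. Cdk1 was thus detected in more cells than these 3 cyclins added up. The kinase Aurka, which matures the spindle poles, was in 7 cells at 113 to 266 CPM. Plk1, a kinase of many mitotic steps, was in 2 cells, at 107 CPM in 1 and 12.3 CPM in the other.

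The chromosomal passenger complex, which corrects attachments and guides cytokinesis, was represented by 3 genes. Birc5 (survivin) was in 8 cells at 10.9 to 179 CPM and Cdca8 (borealin) in 8 at 88.8 to 427 CPM. The complex's kinase, Aurkb, passed 10 CPM in 1 cell only, with 80 reads (132 CPM), and 1 more cell held a read. Incenp, its scaffold and not a member, was in 10.8% of cells.

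At the kinetochore, Cenpa, the histone variant that marks centromeres, was in 25 cells (10.8%, interval 7.10% to 15.5%; 10.6% ± 5.55 over sets) at 11.1 to 304 CPM, median 200. Cenpf was in 13 cells, Ndc80 in 9 and its partner Nuf2 in 5, although both proteins work in the same microtubule-binding complex. Bub1b and Bub1, checkpoint proteins, were in 6 and 4 cells, and the motor Cenpe was in 4. Of the 5 Nuf2 cells, 4 were in the set L32 HSC-4, which was 10.5% of that set, and 1 in L29 HSC-3. Ndc80 reached 1598 CPM in a cell that held no other narrow member, the highest level of a kinetochore member.

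Among spindle and cytokinesis genes, Kif23, the motor of the central spindle (chr9:61915905-61946774, mm10), was the most widespread narrow member: 38 cells (16.4%, interval 11.9% to 21.8%; 16.2% ± 3.45 over sets) at 10.0 to 1150 CPM, median 256. It was detected in every set, in 12.8% to 21.1% of cells. Tacc3 and Ckap2, microtubule-associated proteins, were in 17 cells each, and Nusap1, which bundles spindle microtubules, was in 13. Kif20a, another cytokinesis motor, was in 12 cells but at a median of 4 reads, against 54 reads for Kif23. Tpx2, which activates Aurka, was in 10 cells, the spindle motor Kif11 in 7, and Hmmr, a spindle-associated protein, in 2 at a median of 3 reads. Detections of Hmmr and Kif20a thus sat near the detection limit. Nusap1 and Hmmr were also present in 38 near-empty wells, those with fewer gene than spike-in reads, at 117 and 13.0 CPM over the pooled wells, against 16.0 and 0.082 CPM in the 66 kept cells of the same sets. Exons of Kif20a overlap those of Cdc23 on the opposite strand over 33.2% of their length, and the sources used here do not say whether the counting used strand. Cdc23 was detected in 7 of the 12 Kif20a cells and in 38.6% of the cells without Kif20a.

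Of the chromosome genes, Top2a, which untangles DNA (chr11:98992943-99024189, mm10), was in 29 cells (12.5%, interval 8.53% to 17.5%; 11.8% ± 4.84 over sets) at 13.2 to 1863 CPM, median 268. Mki67, which coats mitotic chromosomes and is the common marker of proliferation, was in 13 cells (5.60%) at 10.2 to 1329 CPM. Smc4, a condensin subunit, was in 145 cells (62.5%) with a median of 131 CPM where detected. Averaged over kept cells as TPM, a scale that divides by gene length, the level was 46.8 for Smc4, 12.5 for Cdk1, 11.9 for Kif23 and 2.96 for Mki67. Smc4 also followed the library series. It was in 82.6% and 86.0% of cells in the 2 sets of series 29, against 36.4%, 54.5%, 60.5% and 38.5% in the 4 sets of series 32, and Smc2, which pairs with Smc4 in condensin, was in 26.3% of all cells. Series and HSC code cannot be told apart from other differences between these sets.

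The protein destruction genes were Cdc20, an activator of the anaphase-promoting complex, in 18 cells, Cdca3, an adaptor that targets the Cdk1 inhibitor Wee1, in 3, and Ube2c, the complex's conjugating enzyme, in 2. Cdc20 was thus seen in many more cells than its enzyme partner Ube2c. Elovl1, whose exons share 53 bases with Cdc20 on the opposite strand, was detected in 14 of the 18 Cdc20 cells and in 43.5% of the others. Larger opposite-strand overlaps were those of Ube2c with Tnnc2, over 22.8% of its length, and of Ccna2 with Exosc9, over 12.5%. Tnnc2 was detected in no kept cell. Exosc9 was detected in 4 of the 8 Ccna2 cells and in 21.0% of the others.

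Most cells held few of these genes. Of the 232 kept cells, 85 (36.6%) held none of the 29 narrow members, 74 (31.9%) held 1, 43 held 2, 21 held 3 or 4, 5 held 5 to 7, and 4 held 11 or more. No cell held 8 to 10, so 4 cells lay apart from all others. At least 5 were held by 9 cells, 3.88% (interval 1.79% to 7.24%), and by 7 of 213 (3.29%, 1.33% to 6.65%) without the wells that share reads. Counting Smc4 as well, 13 cells held at least 5 of 30.

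**Figure D2:**
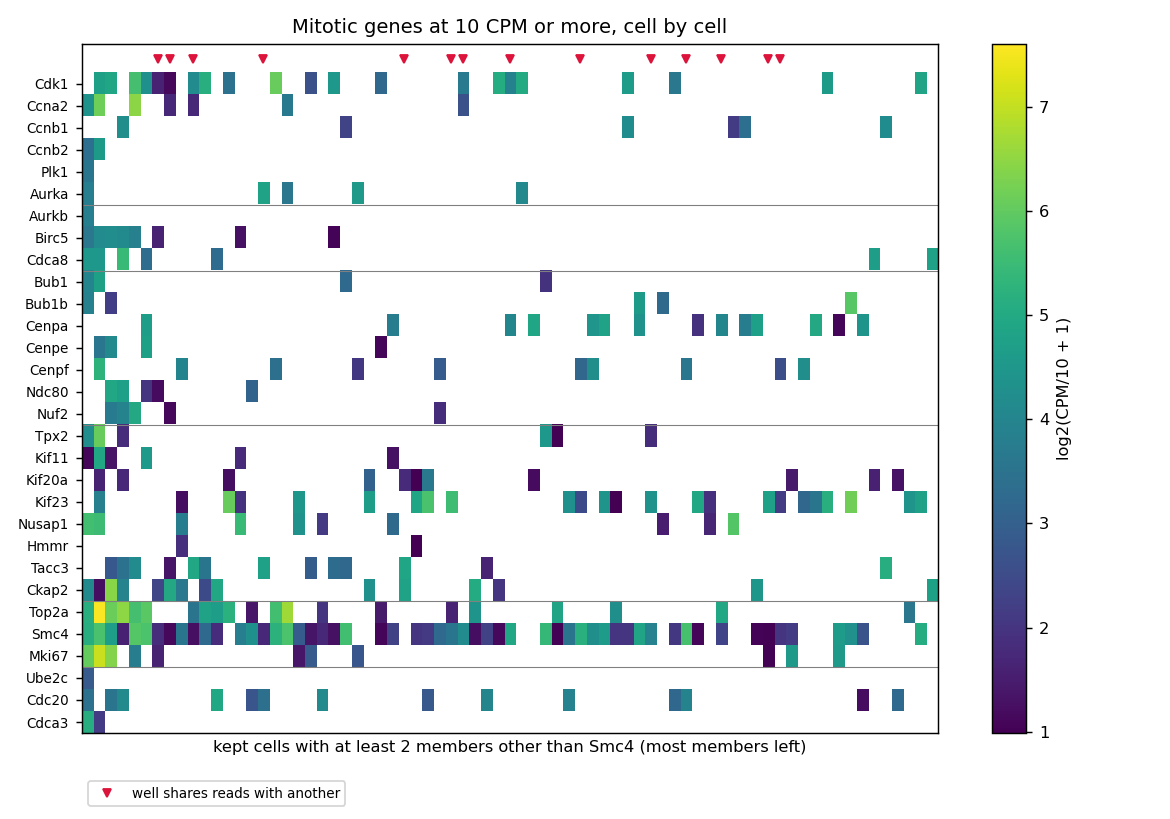
Level of each of the 30 members (rows, grouped by role between grey lines) in every kept cell with at least 2 members other than Smc4 (columns, most members at the left), as log2(CPM/10 + 1); white is below 10 CPM and red triangles mark wells that share reads. The left-hand columns are filled across roles, and most other columns hold 2 or 3 members, with Kif23, Cenpa, Top2a and Cdk1 recurring.

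The 9 cells came from 5 of the 6 sets: 2 of 46 cells in L29 HSC-3 (4.35%), 1 of 43 in L29 HSC-4 (2.33%), 1 of 44 in L32 HSC-3 (2.27%), 4 of 38 in L32 HSC-4 (10.5%) and 1 of 39 in L32 HSC-5 (2.56%). In L32 HSC-2 it was 0 of 22, which allows a share of up to 13.6% (3 cells of 22) or, as the upper end of the exact interval, 15.4%. The mean over sets was 3.67% ± 3.63. The intervals of all 6 sets overlap. Of the 4 cells in L32 HSC-4, 2 were wells that share reads; without such wells that set had 2 of 26, 7.69%.

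**Figure D3:**
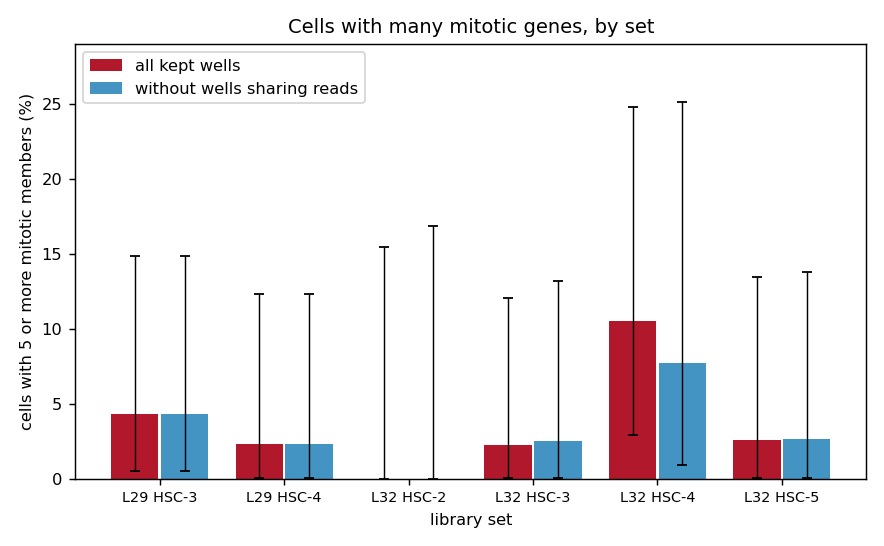
Share of kept cells with at least 5 of the 29 narrow members (y axis, %) in each library set (x axis), over all kept wells (red) and without wells that share reads (blue); bars are shares and whiskers are exact 95% binomial intervals. L32 HSC-4 is highest in both, at 10.5% and 7.69%, and its intervals overlap those of the other sets.

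These 9 cells are called A to I here, in order of their members. Cell A (L32 HSC-3, 604948 gene reads) held 18 narrow members and was the only cell of the 4 richest with Plk1, Aurka, Aurkb and Ube2c. Its Mki67 was at 641 CPM, Nusap1 at 478 CPM and Top2a at 350 CPM, yet Cdk1 had 0 reads. Cell B (L29 HSC-4) held 17, among them Cdk1, Ccna2, Ccnb2, Bub1, Cenpe and Cenpf, from 145976 gene reads. Its Top2a was at 1863 CPM and its Mki67 at 1329 CPM, both the highest of any cell, and 11.5% of its reads were mitochondrial, against a median of 3.63% over kept cells. Cell C (L32 HSC-4) held 12, with Ckap2 at 857 CPM and both Ndc80 and Nuf2. Cell D (L29 HSC-3) held 11, with Top2a at 881 CPM, and was the only one of the 9 with Ccnb1; it had 0 reads of Cdk1 and Mki67.

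What the 4 richest cells shared was short. All 4 held Birc5, Ckap2, Top2a and Smc4, and none held Cenpa or Hmmr at 10 CPM. Cdca8, Tpx2, Kif11, Mki67 and Cdc20 were in 3 of the 4, and 12 members, Cdk1 among them, were in 2. No member other than these 4 was in all of them, and Kif23, the most widespread narrow member, was in 1.

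Cells E and F held 7 each and cells G, H and I held 5. Cell E (L32 HSC-5) held Cdk1 at 188 CPM, Cenpa at 243 CPM and Top2a at 591 CPM. Cell F (L32 HSC-4) held Ccna2 at 860 CPM, the highest level of that cyclin, with Cdk1 at 495 CPM. Cell I (L29 HSC-3) held Cenpf, Kif23, Nusap1, Hmmr and Ckap2, without Cdk1 or Top2a, and its 8871 genes from 149744 reads were more genes than in any other of the 9.

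Cells G and H were plate 2, column 8 wells of L32 HSC-4 that hold reads of other wells. In G, Cdk1, Ccna2, Nuf2, Tacc3 and Smc4 had 3 to 6 reads, and the same genes had 178, 309, 109, 61 and 206 reads in cell F, the plate 1 well of its row. Ckap2 alone differed, with 77 reads in G and 0 in F. In H, all 6 members detected had 3 to 10 reads and all 6 were in cell C, the plate 1 well of its row, with 59 to 282 reads. The low reads of these members in G and H thus lie beside high reads of the same members in a source well.

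Detections split into those in company and those alone. The 29 narrow members were detected 315 times in all: 87 times (27.6%) in the 9 cells with at least 5, 154 times in cells with 2 to 4, and 74 times (23.5%) as the only narrow member in the cell. Lone detections were not mainly weak ones. Their median was 181 CPM (50.5 reads), against 164 CPM (58 reads) for detections in the 9 cells, and 60 of the 74 reached 50 CPM. The 9 cells include G and H, wells that share reads. Apart from Ckap2 in G, their narrow members were at 11.9 to 42.2 CPM, which lowers the 164 CPM, and no median without them was taken. Of all 315 detections, 36 (11.4%) had under 5 reads, and 11 of these were lone.

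**Figure D4:**
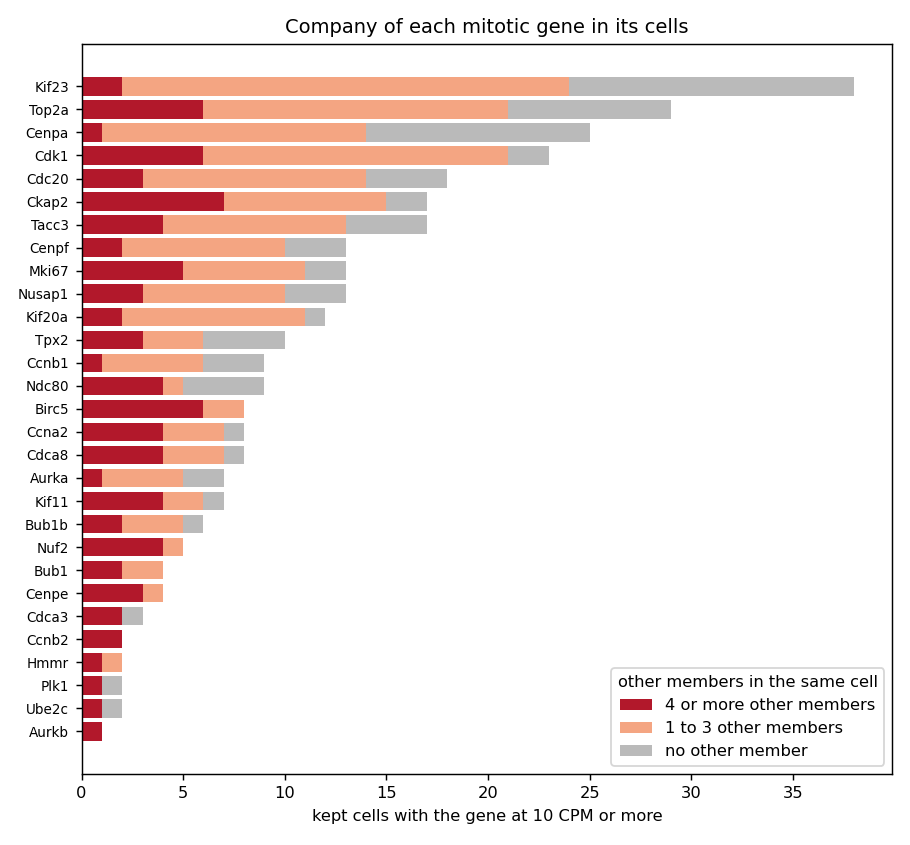
Number of kept cells with each of the 29 narrow members at 10 CPM or more (x axis; genes on the y axis), split by how many other narrow members the same cell held: 4 or more (dark red), 1 to 3 (light red) or none (grey). Kif23 and Cenpa have the longest grey bars, 14 and 11 cells, and Birc5 and Nuf2 have none.

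The members ranged from often alone to always accompanied. Kif23 was alone in 14 of its 38 cells and with 4 or more others in 2. Cenpa was alone in 11 of 25 and with 4 or more others in 1. These were the largest numbers of lone cells. As a share of its own cells, Kif23 (36.8%) was alone less often than Cenpa (44.0%), Ndc80 (44.4%), Tpx2 (40.0%, 4 of 10), Plk1 and Ube2c (1 of 2 each). Kif23 cells held 1.32 other narrow members on average, against 1.17 in cells without it, and Cenpa cells 0.800, against 1.30. So neither gene came with clearly more members than cells without it held. In lone cells Kif23 had a median of 377 CPM and Cenpa 186 CPM.

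At the other end, 7 members were never alone: Ccnb2 (2 cells), Aurkb (1), Birc5 (8), Bub1 (4), Cenpe (4), Nuf2 (5) and Hmmr (2). For the members in so few cells, having no lone cell says little. Birc5 had 4 or more others in 6 of its 8 cells and Nuf2 in 4 of its 5, or 5 of 7 and 3 of 4 without the wells that share reads. Birc5 cells held 8.62 other narrow members on average, against 1.06 in cells without it, and Nuf2 cells 6.40, against 1.22. Nuf2's partner Ndc80 differed: it was alone in 4 of 9 cells and with 4 or more others in 4.

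Between these lay the proliferation markers in common use. Top2a was alone in 8 of 29 cells, with 1 to 3 others in 15 and with 4 or more in 6. Mki67 was alone in 2 of 13 and with 4 or more in 5, where its median was 641 CPM, against 80.1 CPM in the 2 lone cells. Top2a likewise had a median of 636 CPM with 4 or more others, against 134 CPM when alone. Cdk1 did not show this order: 224 CPM with 4 or more others, in 6 cells, and 283 CPM in its 2 lone cells. Those 6 include cells G and H, wells that share reads, at 11.9 and 21.1 CPM. The other 4 were at 188 to 495 CPM. Ccnb1 was alone in 3 of 9 cells and with 4 or more others in 1.

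By role, the passenger complex was the most accompanied, with 11 of 17 detections (64.7%) beside 4 or more others and 1 (5.88%) alone. Kinetochore and checkpoint genes were alone in 19 of 66 detections (28.8%), protein destruction genes in 6 of 23 (26.1%), spindle and cytokinesis genes in 29 of 116 (25.0%), chromosome genes without Smc4 in 10 of 42 (23.8%) and kinases and cyclins in 9 of 51 (17.6%). Cells enter these counts once for each member they hold, so the detections are not independent.

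Most pairs of narrow members rested on few cells. Of 406 pairs, 310 were in at least 1 cell and 96 in none, and 71 were in at least 3 cells, or 62 without the wells that share reads. Outside the 9 cells with at least 5 members, only 10 pairs remained in at least 3 cells. Cdk1 and Top2a led, together in 9 cells (8 without the wells that share reads), 5 of them outside those 9, where the product of their shares gives 2.88 cells. Cdk1 with Tacc3 was in 7 cells (5 without the wells that share reads; 4 outside; product 1.69), Ckap2 with Top2a in 7 (3 outside; product 2.12) and Top2a with Cdc20 in 6 (3 outside; product 2.25). The product is a yardstick that takes all cells as equal, which they are not in depth.

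Genes whose proteins work as partners were together in few cells. For the 7 pairs given first, the product of shares was below 1 cell, so 1 shared cell already lies above it and by itself shows nothing. Larger counts came mostly from the 9 cells, which were picked for holding many members. Cdk1 was with Ccna2 in 5 cells (product 0.793), 2 without the wells that share reads, with Ccnb1 in 1 (0.892) and with Ccnb2 in 1 (0.198). Ndc80 and Nuf2 were together in 2 cells (0.194), Birc5 and Cdca8 in 3 (0.276), Aurka and Tpx2 in 1 (0.302) and Bub1 and Bub1b in 1 (0.103). Of these 7 pairs, outside the 9 cells only Cdk1 with Ccna2, in 2 cells that both share reads with other wells, and Cdk1 with Ccnb1, in 1, were found. The 2 cytokinesis motors Kif20a and Kif23 were together in 5 cells (4 outside; product 1.97). Kif23 with Cenpa was in 3 cells where the product is 4.09, and Cenpa with Top2a in 2 where it is 3.12.

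Whether members fell in cells with a replication program was examined with 40 S-phase genes, which share no gene with the 30 members. The median cell held 6 of the 40 when it had 0 or 1 narrow members, 8 with 2 to 4, and 32 with at least 5. In order of members, cells A to F held 33, 32, 39, 32, 33 and 35 S-phase genes, cells G and H held 25 and 26, and cell I held 12. Read the other way, 8 kept cells held at least 30 S-phase genes and 6 of these, A to F, had at least 5 narrow members. The remaining 2 had 4, in a well that shares reads, and 3, namely Ndc80, Top2a and Cdc20. Of 14 cells with 20 to 29 S-phase genes, 2 had at least 5 narrow members, both in wells that share reads, and 3 had 0 or 1.

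**Figure D5:**
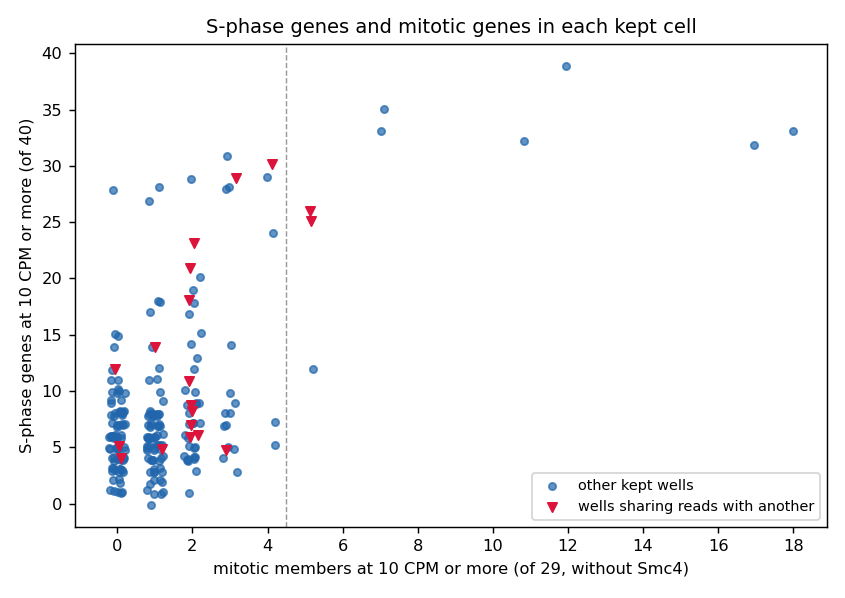
Number of 40 S-phase genes detected (y axis) against the number of 29 narrow mitotic members detected (x axis) in each of the 232 kept cells, with small random offsets; red triangles are wells that share reads and the dashed line separates cells with at least 5 members. Cells with 7 or more members hold 32 to 39 S-phase genes, and cells with 28 S-phase genes occur at 0 and 1 members.

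Outside the 9 cells, the members differed in the replication genes around them. Cells without a given member held a median of 6 S-phase genes there. Top2a cells held 9, and 9 of those 23 cells had at least 20; Cdk1 cells also held 9 (4 of 17 with at least 20). Ckap2 cells held 12 (n = 10) and Ccna2 cells 24.5 (n = 4), or 18.5 in the 2 that are not in wells sharing reads. Without such wells the medians were 8.5 for Top2a (n = 20), 8 for Cdk1 (n = 14) and 17 for Ckap2 (n = 9). The 4 Cdk1 cells with at least 20 include wells that share reads. Kif23 cells held 6 (n = 36), with 1 cell at 20 or more, Cenpa cells 7 (n = 24) and Mki67 cells 6 (n = 8), with none at 20 or more for Cenpa and Mki67. So outside the 9 cells, a Kif23, Cenpa or Mki67 transcript came in cells with about as few S-phase genes as cells without it. In cells where the gene was the only narrow member, the medians were 5 for Kif23 (n = 14), 6 for Cenpa (n = 11) and 3.5 for Mki67 (n = 2). Exceptions among lone detections were a Top2a cell with 28 S-phase genes and a Tacc3 cell with 27.

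The S-phase genes were also higher in level. Against the 85 cells with no narrow member, the 9 cells with at least 5 were compared by mean CPM plus 10, and a gene was counted as higher or lower past 2-fold. Of 9685 genes outside the members detected in at least 10% of kept cells, 8.06% were higher and 13.9% lower, and the median log2 fold was -0.07. Without the wells that share reads, 7 cells against 82, it was 9.58% and 18.2%. All 30 of the S-phase genes common enough to measure were higher, with a median log2 fold of 2.51, and of 2.81 without the wells that share reads. Mcm2, a replicative helicase subunit, averaged 584 CPM in the 9 cells and 66.2 CPM in the 85 and was detected in 9 of 9 and 20 of 85. Tyms, which makes thymidylate, averaged 514 and 24.6 CPM. Rrm2, the small subunit of ribonucleotide reductase, was too rare for the count above and was detected in 7 of 9 and 0 of 85 cells.

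Other mitotic genes were detected more often in the 9 cells, but not all were higher in level. Of 46 on a second list, the median cell held 17 (8 to 28) among the 9 and 4 (0 to 9) among the 85. Only 15 of the 46 were common enough to measure in level, and the rarer ones are left out of the counts that follow. Of the 15, 9 were higher and 2 lower, or 10 and 2 without the wells that share reads. Among all genes 8.06% were higher and 13.9% lower, so the 2 lower are near that background. The condensin gene Ncapd2 averaged 288 CPM in the 9 cells and 24.6 CPM in the 85, Mad2l1, a checkpoint protein, 151 and 17.7 CPM, and Hmgb2 154 and 20.1 CPM. Lower were Pttg1 (securin), at 6.20 and 85.9 CPM, and Ckap5, a microtubule polymerase, at 0.441 and 52.7 CPM. Both were found in cells with no narrow member: Pttg1 in 34 of the 85 cells and in 1 of the 9, Ckap5 in 15 of the 85 and in 0 of the 9. Bub3 was nearly level, at 249 and 236 CPM.

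HSC genes ran the other way in level. Of 16 measured, 0 were higher and 7 lower, and all 16 log2 folds were below 0, with a median of -0.68. In number detected they did not: the median cell held 9 of the 16 among the 9 cells and 8 among the 85. Hlf was detected in 7 of the 9 and 60 of the 85, while Procr was in 2 of the 9 and 52 of the 85. Procr, the EPCR gene, averaged 23.3 CPM in the 9 cells and 261 CPM in the 85, Mllt3 72.4 and 393 CPM and Hlf 131 and 302 CPM. Kit and Angpt1 stayed near level, at 465 and 514 CPM and at 612 and 655 CPM. Of 11 genes linked to leaving G0, 3 were higher and 2 lower. The higher ones were the G1 kinase Cdk6, at 347 and 46.3 CPM, E2f3, a transcription factor of the G1 to S step, at 120 and 29.6 CPM, and Cdk2, at 221 and 94.8 CPM. Cyclin D2, Ccnd2, was lower at 256 and 824 CPM, and Mycn at 269 and 580 CPM. Of 9 quiescence genes measured, 0 were higher and 1 was lower, near the 13.9% of all genes that were lower. The lower one was Rbl2, a pocket protein that holds E2F genes silent, at 34.5 and 124 CPM. It was detected in 4 of the 9 cells and 42 of the 85. Without the wells that share reads, 3 of the 9 genes were lower, against 18.2% of all genes. The median cell held 4 of the 15 quiescence genes listed among the 9 cells and 3 among the 85.

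Markers of other blood lineages were mostly too rare to measure. Among 11 myeloid genes 2 could be measured and neither passed 2-fold, and Elane and Ctsg had 0 reads in these cells. Of 4 erythroid genes Gfi1b was higher, at 329 and 75.2 CPM, and Hbb-bt lower, at 2.23 and 17.1 CPM; of 5 megakaryocyte genes Itga2b was higher, at 131 and 42.5 CPM. None of the 4 multipotent and lymphoid progenitor genes and not the 1 B or T cell gene measured passed 2-fold. Without the wells that share reads, Flt3, a progenitor gene (log2 fold 1.23), Cd79b, a B cell gene (1.05), and the erythroid gene Hbb-bs (1.02) did. Gata1, below the cut for measurement, was detected in 3 of the 9 cells and 1 of the 85. The part of other cell types in these differences was not tested.

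Genes detected and reads per spike-in read moved with the number of members, and total reads did not. The 9 cells had a median of 7302 genes, against 5098 in the 85, and 25.1 gene reads per spike-in read, against 15.6. Their median gene reads were 329121, against 288996. Across the 232 cells, which come from 6 sets of libraries, the number of narrow members had a Spearman rho of 0.370 with genes detected, 0.314 with reads per spike-in read and -0.045 with total reads. Smc4 was found more often with more members: in 50.6% of cells with 0 narrow members, 63.5% with 1, 71.9% with 2 to 4 and 9 of 9 with at least 5. The 9 include G and H, wells that share reads, with 3 and 6 Smc4 reads. These groups pool the 6 sets, in which Smc4 was in 36.4% to 86.0% of cells and 21.1% to 53.8% of cells held 0 narrow members. The part of set, of RNA content or of detection in these results was not tested.

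Genes most like the members were ranked by partial Spearman correlation with the number of narrow members over 232 cells, using ranks within set and given genes detected and total reads. The values were low, with a median of 0.008 over 9685 genes. Among the highest were the replication genes Wdhd1 (0.298), Lig1 (0.287) and Mcm4 (0.283), followed by Med12l, Mbd4, Appbp2, Tbc1d14, Ypel5 and Pola1 (0.261). The lowest were Sec13 (-0.298), Rpl6l, Ctdsp2, Rpl6 and Traf3ip3 (-0.242). Lig1 was detected in 8 of the 9 cells and 13 of the 85, while Ypel5 was in 2 of the 9 and 15 of the 85.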

How the data were processed

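The authors' deposited table gives whole-number read counts per gene for each well, 1 cell a well, with no normalization. Per the submitters' processing notes, GSNAP and featureCounts 1.6.2 were used with mm10; their settings are not stated in those notes. The 49764 rows hold 49671 Ensembl genes, 92 spike-ins (11.7% of the counts) and 1 transgene; the last 2 kinds stayed out of gene totals. Symbols were found for 49326 genes.

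Counts were scaled to CPM over Ensembl genes and described in Python 3.11.15 (numpy 2.4.6, scipy 1.17.1, pandas 2.3.3), with no test, since cells of 1 group are not replicates. The 30 members and the 10 gene lists (177 genes, all found) were chosen with earlier results of these data known. Named list genes are those past 2-fold or the highest in mean CPM, with others picked after their values were seen (Rrm2, Gata1, Bub3, Smc2, Incenp, Elane, Ctsg, Cd48, Cdc23, Elovl1, Kit, Angpt1, Flt3, Cd79b, Hbb-bs). The most like genes were limited to those with a gene symbol that is not a predicted-gene or Riken name. Of the genes these rules name, 2 are not reported here. Scripts were tested on simulated counts. Alternatives covered the detection level, filters, depth, scaling, pseudocount, each set left out and, chosen after seeing the data, wells that share reads.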

Additional observations from a re-analysis of the deposited data

Results flagged for a closer look

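Signal was present in wells that entered no comparison. The 38 near-empty wells in the sets L32 HSC-3 and L32 HSC-2 held 616795 gene reads in all, and 9 members had more than 3 of them: Smc4 258, Nusap1 72, Kif23 25, Hmmr 8, Ccna2 5, Nuf2 5, Ckap2 5, Tacc3 4 and Top2a 4. In CPM over the pooled wells, 13 of the 30 members were higher there than in the 66 kept cells of the same sets. Of all genes detected in at least 10% of kept cells, 21.3% were higher. Only 4 members reach that 10%, and of these Smc4 alone was higher, so the 21.3% does not describe genes as rare as the other 26. Plk1, Aurkb, Birc5, Cenpe, Cenpf, Kif11, Kif20a and Ube2c were among the 13 on 3 reads or fewer. Nusap1 was at 117 CPM in near-empty wells and 16.0 CPM in kept cells, Smc4 at 418 and 122 CPM, Hmmr at 13.0 and 0.082 CPM and Kif23 at 40.5 and 43.3 CPM. Cenpa had 1 read there, Mki67 1 and Cdk1 2, and 6 members had none. All 6 are among the 26 members detected in under 10% of kept cells, and of all genes in that range with a detection, 41.9% had no read in the near-empty wells.

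The H2B-GFP transgene, labelled as not induced, had 126, 61 and 22 reads in 3 kept cells and at most 3 reads in any other. A read was present in 19 kept cells, of which 1, cell F, was among the 9 with at least 5 narrow members. The cell with 126 reads held 1 narrow member.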

How the results depend on the processing

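The 3.88% of cells with at least 5 narrow members became 12.1% with detection at 1 CPM and also at 1 read (28 cells each), 12.9% with a minimum of 3 members and 1.72% with a minimum of 8, 6.47% (15 cells) after thinning and 2.59% at 50 CPM; leaving out 1 set gave 2.58% to 4.29%. Lone detections, 23.5%, became 8.87% at 1 CPM, 8.19% at 1 read, 35.1% at 50 CPM, 15.2% with Smc4 counted and 16.9% after thinning each cell to 100000 reads (22.1% to 27.6% without 1 set). Pairs in at least 3 cells, 71, became 185 at 1 CPM, 186 at 1 read, 33 at 50 CPM, 116 after thinning and 41 under a stricter cell filter; leaving out 1 set gave 41 to 70, with 44 without L29 HSC-4 and 41 without L32 HSC-4. Genes past 2-fold higher, 781, became 1291 with 17546 genes measured (837 to 1061 without 1 set). Which members count as rare or alone thus depends on the detection level, by construction. Size factors by median of ratios, totals without mitochondrial genes and leaving out wells that share reads moved the share of cells to 4.31%, 3.88% and 3.29%. All 30 members were in more cells at 1 CPM and at 1 read, for 14 of them past the interval of the share at 10 CPM. Without the wells that share reads 17 were in fewer cells, with 0 shares outside that interval. No paired analysis was possible because there is 1 group and no test. Depth limits these counts: 10 CPM is 2.8 reads in the median cell.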
